A study of Mus musculus with 8 samples.

Results

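The genes described here recycle nicotinamide into NAD+ or remove nicotinamide from the liver cell. They were chosen by symbol, as the members of a list of 10 genes (Nampt, Nmrk1, Nmnat1, Nmnat3, Pnp, Nnmt, Aox1, Aox3, Nadk and Nadk2) among 41388 deposited features, a rule that uses no measured value. The list itself was drawn up with earlier results of these data known. Liver RNA was sequenced from 8 db/db mice, which lack a working leptin receptor and become obese and diabetic. Of these, 4 received an adenovirus carrying green fluorescent protein (AdGFP) and 4 received one carrying the enzyme NAMPT (AdNAMPT), both through the tail vein. All 8 carried the db/db defect on a background labelled C57B/6J, were littermates allocated to a virus at 5 weeks per the labels, and were 10 weeks old at sampling. The db/db background is given by the sample titles, since the genotype field of the AdGFP libraries reads control. The paper's reporting summary gives males for its db/db studies. The series text gives 4 to 5 weeks of overexpression. The paper's methods and its legend for fat of db/db mice give shorter times after adenovirus, so the time is not settled here. No uninjected or lean liver was among the libraries. An adenovirus given by vein reaches mainly the liver, and the labels do not name the promoter that drives either insert. The libraries of a group came from separate mice, per the numbered titles and the study's legend.

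NAMPT joins nicotinamide to phosphoribosyl pyrophosphate (PRPP) to make nicotinamide mononucleotide, the slow step of the salvage route. NMRK1 makes the same mononucleotide from nicotinamide riboside, PNP can split the riboside back to nicotinamide, and the NMNAT enzymes turn the mononucleotide into NAD+. Clearance runs through NNMT, which methylates nicotinamide at the expense of S-adenosylmethionine, and through the molybdenum-dependent aldehyde oxidases AOX1 and AOX3, which oxidise the methylated product to pyridones. NADK in the cytosol and NADK2 in mitochondria add a phosphate to NAD+ to make NADP+. In liver, this network sets how much nicotinamide returns to NAD+ and how much leaves as methylated waste.

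Libraries held 12006713 to 19879814 counts, and 12270 genes passed the filter on low values. The liver label was checked against its markers: 8 hepatocyte genes (Alb, Ttr, Apoa1, Apob, Cps1, Fgb, Tat and Hnf4a) summed to between 105550 and 133412 counts scaled to the library total (CPM) in every library, while adipocyte, T cell and B cell markers summed to at most 3.95 CPM and neutrophil and cholangiocyte markers to at most 8.58 CPM. Library AdNAMPT replicate 1 stood apart from the rest. Its 12 female-biased liver genes averaged 2.05 on the log2 CPM scale, where the other AdNAMPT libraries had 5.13 to 5.41, and its male-biased genes averaged 7.81 against 5.06 to 5.74. The limma model gave it the lowest weight of the 8 libraries (0.440). Kupffer cell markers summed to 211 to 264 CPM in AdGFP and 154 to 254 CPM in AdNAMPT, with 6 of 6 estimates lower in AdNAMPT and 0 past the threshold. In bulk tissue, fewer cells of a type and less RNA per cell cannot be told apart. Ribosomal RNA, mitochondrial included, took 1.77% to 2.63% of counts in the AdGFP libraries and 0.863% to 1.62% in the AdNAMPT libraries. These ranges did not overlap, so this share moved with every comparison below. The part of these library differences in the results was not tested.

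The question put to these 10 genes was whether their RNA differed between the AdNAMPT and AdGFP libraries. None passed the threshold: with limma, 0 of 10 had an adjusted p of at most 0.05, against a background of 0.277% of all tested genes (34 genes, of which 2 were higher and 32 lower in AdNAMPT). All 10 passed the filter on low values, with 74 to 6038 reads in a library, so none was lost to low counts. At an unadjusted p under 0.05 there were 2 members, Aox1 and Nmnat1, both higher in AdNAMPT, where the share over all tested genes was 9.69%, or 4.65% for those higher. Estimates were higher in AdNAMPT for 5 members and lower for 5, their median log2 fold change was -0.044, and the median over all tested genes was 0.00153. The limma adjusted p of the members ran from 0.383 for Aox1 to 0.933 for Nadk. Without AdNAMPT replicate 1 there were again 0 members past the threshold, and 3 had an unadjusted p under 0.05, where 10.5% of all genes tested in that fit did.

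**Figure D1:**
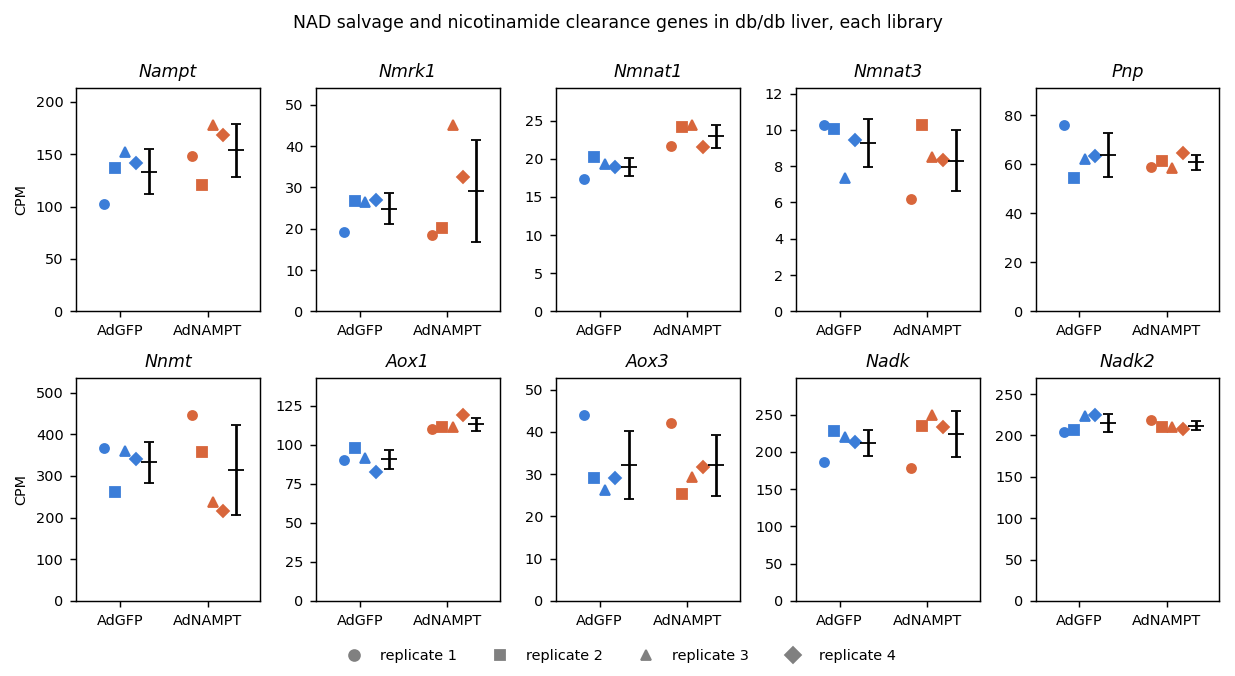
Each panel plots 1 gene, with CPM on a vertical axis that starts at 0 and the 4 AdGFP libraries (blue) and 4 AdNAMPT libraries (orange) as points whose shape gives the replicate number, and the black dash and bar are the mean and SD. Aox1 and Nmnat1 are the panels in which all orange points lie above all blue points, and Nmrk1 and Nnmt are those with the widest spread among the AdNAMPT libraries.

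Among the members, Nampt is the transferred gene, and Aox1 and Aox3 are neighbouring copies of 1 enzyme family whose estimates had opposite signs. The upstream sequences of these 3 mouse genes are shown as description only, and no test used them. They come from RefSeq on GRCm38.p6, read on the plus strand from 5′ to 3′, and each stops at the base before the gene's start in the GENCODE annotation. Capitals mark the GC box, searched as GGGCGG and its reverse complement CCGCCC on both strands, with no matches overlapping each other.
Nampt, chr12:32820085-32820334: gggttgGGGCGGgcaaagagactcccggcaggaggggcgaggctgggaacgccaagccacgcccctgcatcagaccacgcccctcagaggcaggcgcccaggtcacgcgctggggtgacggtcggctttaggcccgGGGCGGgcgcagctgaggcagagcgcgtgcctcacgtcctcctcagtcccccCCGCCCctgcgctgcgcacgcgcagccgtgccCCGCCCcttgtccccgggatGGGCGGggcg
Aox1, chr1:58029719-58029930: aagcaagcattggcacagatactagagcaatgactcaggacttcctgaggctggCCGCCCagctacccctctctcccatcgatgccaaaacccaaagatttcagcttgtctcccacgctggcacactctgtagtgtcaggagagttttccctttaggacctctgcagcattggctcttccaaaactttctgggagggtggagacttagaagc
Aox3, chr1:58112886-58113129: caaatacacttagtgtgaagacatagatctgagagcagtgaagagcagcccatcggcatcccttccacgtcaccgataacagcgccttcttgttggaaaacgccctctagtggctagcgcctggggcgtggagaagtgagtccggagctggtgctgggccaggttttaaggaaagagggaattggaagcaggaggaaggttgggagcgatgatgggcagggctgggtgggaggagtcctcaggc
Over the full 250 bases before each RefSeq start, the Nampt window held 5 GC boxes and had 75.6% G and C, the Aox1 window held 2 and had 52.8%, and the Aox3 window held 0 and had 56.4%. The GC box occurred in 32.7% of 32851 such windows, whose median G and C share was 52.4%. The E-box CACGTG, the element that clock factors bind, was found in 6.02% of all windows and in none of these 3. RefSeq windows were matched for 8 of the 10 members. Such matches describe the letters of the window and not the binding of a factor.

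Per length, the members spanned a wide range of expression in these livers. On the deposited RPKM scale (CPM per kilobase of exon), averaged over 8 libraries, Nnmt was the highest at 205 ± 49.4 (SD). Nadk followed at 58.3 ± 6.50, Nadk2 at 49.1 ± 1.85 and Nampt at 31.6 ± 5.36. Below these lay Pnp at 20.2 ± 2.06, Aox1 at 11.7 ± 1.49 and Nmrk1 at 8.06 ± 2.62. Nmnat1 had 6.89 ± 0.825, Aox3 4.56 ± 1.005 and Nmnat3 1.76 ± 0.297 RPKM. Ranges of neighbours in this order did not overlap between Nnmt and Nadk, Nadk2 and Nampt, Pnp and Aox1, or Aox3 and Nmnat3. The other neighbours overlapped: Nmrk1 was above Nmnat1 in 6 of 8 libraries, and each of the remaining overlapping pairs kept its order in 7 of 8. Nnmt, which consumes nicotinamide, thus had a higher RPKM than Nampt, which recycles it, in 8 of 8 libraries.

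Nampt (ENSMUSG00000020572, protein coding, chromosome 12, 32820335 to 32853369, plus strand) did not separate the groups, although it is the gene carried by the AdNAMPT virus. In replicate order, Nampt was read at 102, 137, 153 and 142 CPM under AdGFP and 149, 120.5, 178 and 168 CPM under AdNAMPT. AdNAMPT replicate 2 lay below 3 of the 4 AdGFP libraries. The estimated fold was 1.06 with a 95% confidence interval of 0.838 to 1.33 (limma adjusted p 0.915), whose upper bound is a 1.33-fold rise. Each library held 1497 to 3534 reads of the gene, so depth did not limit the comparison. Leaving out 1 library at a time moved the log2 fold change between -0.08 (without AdNAMPT replicate 3) and 0.27 (without AdNAMPT replicate 2), and it was also below 0 without AdGFP replicate 1 (-0.06) or AdNAMPT replicate 4 (-0.05). The study describes the insert as the wild-type mouse enzyme, and gene counts do not separate its transcripts from those of the mouse gene. The paper's methods describe conditions tuned to a NAMPT rise like that of fasting or trehalose. The counted feature spans 4547 exonic bases, and how many of them the insert holds is not given. A rise over only part of these bases would be smaller in the gene count, so the interval applies to the whole feature. Of the 5045 windows of 50 bases in Nampt transcripts, 0 occurred in another gene. Since the transferred gene did not mark the libraries, AdNAMPT here means the libraries labelled so, and every direction rests on that label.

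Nmrk1 (chromosome 19, 18631950 to 18652194), the riboside kinase, was the least steady member. In replicate order, Nmrk1 was read at 19.2, 26.8, 26.4 and 27.0 CPM under AdGFP and 18.4, 20.3, 45.1 and 32.4 CPM under AdNAMPT. The AdNAMPT libraries lay on both sides of the AdGFP range, with replicate 1 below it and replicates 3 and 4 above it. Their highest value was 2.45 times their lowest, against 1.41 times in AdGFP. The log2 fold change was 0.12 with SE 0.23 (limma adjusted p 0.919), and it moved from -0.24 without AdNAMPT replicate 3 to 0.46 without AdNAMPT replicate 2. It was also below 0 without AdGFP replicate 1 (-0.02) or AdNAMPT replicate 4 (-0.11).

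Nmnat1 (chromosome 4, 149467572 to 149485202, minus strand) encodes the nuclear enzyme that completes NAD+. In replicate order, Nmnat1 was read at 17.3, 20.2, 19.3 and 18.9 CPM under AdGFP and 21.7, 24.2, 24.4 and 21.6 CPM under AdNAMPT. On deposited CPM all AdNAMPT libraries were above all AdGFP libraries. After scaling by TMM factors (trimmed mean of M-values, which set aside differences in library composition), AdGFP replicate 2 at 21.9 lay above AdNAMPT replicate 1 at 21.0 and replicate 4 at 21.6, so that scale showed an overlap. Its log2 fold change was 0.22 (SE 0.08, limma p 0.0233, adjusted p 0.459). Of its 50-base windows, 4.70% also occurred in other genes, where unique reads cannot be placed.

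Nmnat3 (chromosome 9, 98287435 to 98420438), assigned to mitochondria, was the least abundant member, with 74 to 169 reads in a library. In replicate order, Nmnat3 was read at 10.3, 10.0, 7.35 and 9.43 CPM under AdGFP and 6.16, 10.2, 8.50 and 8.31 CPM under AdNAMPT. AdNAMPT replicate 1 was the lowest of the 8, while the other AdNAMPT libraries lay within the AdGFP range. Its log2 fold change was -0.14 with SE 0.16 (limma adjusted p 0.816), with -0.056 once AdNAMPT replicate 3 was left out and -0.28 once AdGFP replicate 3 was. It was also -0.25 without AdNAMPT replicate 2 and -0.091 without AdNAMPT replicate 4.

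Pnp (deposited as ENSMUSG00000021871, chromosome 14, 50944302 to 50965237), the phosphorylase that splits nucleosides, was matched by position, since all 3085 exonic bases of that feature lie in exons of Pnp. In replicate order, Pnp was read at 76.0, 54.5, 62.1 and 63.4 CPM under AdGFP and 58.9, 61.3, 58.4 and 64.8 CPM under AdNAMPT. AdGFP replicate 1 was the highest library and AdGFP replicate 2 the lowest, so the AdNAMPT values lay within the AdGFP range. The log2 fold change was -0.17 with SE 0.09 (limma adjusted p 0.602), and it was -0.088 without AdGFP replicate 1. Of its 50-base windows, 878 also occur under other gene names. Of these, 669 occur under Gm49342, the GENCODE name of the very feature counted as Pnp, and 438 occur in Pnp2, a separate gene, so that reads of those stretches cannot be placed uniquely.

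Nnmt (ENSMUSG00000032271, chromosome 9, 48591877 to 48605153, minus strand), the nicotinamide methyltransferase, split the AdNAMPT libraries. In replicate order, Nnmt was read at 366, 262, 361 and 340.2 CPM under AdGFP and 446.5, 358, 238 and 216 CPM under AdNAMPT. AdNAMPT replicate 1 was the highest of the 8 libraries, and replicates 3 and 4 were the lowest. Nnmt averaged 332 ± 48.3 CPM under AdGFP and 315 ± 108 CPM under AdNAMPT (SD, n = 4 each). The estimated fold was 0.819 with a 95% confidence interval of 0.623 to 1.08 (limma adjusted p 0.647). The log2 fold change of -0.29 became -0.46 without AdNAMPT replicate 1 (limma unadjusted p 0.0148, adjusted p 0.362), -0.53 without AdNAMPT replicate 2 (unadjusted p 0.00955), -0.07 without AdNAMPT replicate 3 and -0.06 without AdNAMPT replicate 4, so single libraries decided its size.

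Aox1 (ENSMUSG00000063558, chromosome 1, 58029931 to 58106413), an aldehyde oxidase that makes pyridones, had the smallest p of the 10. In replicate order, Aox1 was read at 90.4, 97.9, 91.7 and 82.7 CPM under AdGFP and 110.0, 112, 111 and 119 CPM under AdNAMPT. All AdNAMPT libraries were above all AdGFP libraries, and on TMM-scaled CPM they stayed so by a narrow margin, 106.5 in the lowest AdNAMPT library against 106.3 in the highest AdGFP library. The estimated fold was 1.18 with a 95% confidence interval of 1.06 to 1.33 (limma p 0.00802, adjusted p 0.383). The unadjusted p was under 0.05 in 20 of 20 alternatives, from 0.000715 to 0.0459, where 6.7% to 13.1% of all tested genes had such a p. These alternatives draw on the same libraries. The adjusted p was between 0.125 and 0.726 in them, so Aox1 passed the threshold over all genes in none.

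Aox3 (ENSMUSG00000064294, chromosome 1, 58113130 to 58200698) begins downstream of Aox1 on the same strand and encodes the related oxidase. In replicate order, Aox3 was read at 44.0, 29.2, 26.2 and 29.2 CPM under AdGFP and 42.1, 25.2, 29.3 and 31.7 CPM under AdNAMPT. The high libraries were replicate 1 of each group, and the remaining 6 lay between 25.2 and 31.7 CPM. Aox3 averaged 32.1 ± 8.05 CPM under AdGFP and 32.1 ± 7.19 CPM under AdNAMPT (SD, n = 4 each). Limma put the log2 fold change of Aox3 at -0.20 with SE 0.17 and an adjusted p of 0.754. This estimate was -0.11 without sample weights, -0.12 with scaling by library size alone and -0.07 with a replicate block. Without AdGFP replicate 1 it was -0.028, and without AdNAMPT replicate 2 it was -0.12, so the size of the difference rested on single libraries. Replicate 1 of each group also had the highest mean of the male-biased genes in its group, 5.96 in AdGFP replicate 1 against 5.28 to 5.48 in the other AdGFP libraries and 7.81 in AdNAMPT replicate 1, on the log2 CPM scale; the part of this in the Aox3 values was not tested. Aox1 and Aox3 shared no exon bases, and 0 of the 50-base windows of Aox3 occurred in another gene.

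Nadk (chromosome 4, 155562378 to 155591001) and Nadk2 (chromosome 15, 9071260 to 9110487) encode the cytosolic and mitochondrial NAD kinases. In replicate order, Nadk was read at 187, 228, 221 and 214 CPM under AdGFP and 179, 235, 249.8 and 234 CPM under AdNAMPT. Its replicate 1 was low in both groups and the groups overlapped, with a log2 fold change of 0.04 (SE 0.10, limma adjusted p 0.933) that was below 0 in 7 of 20 alternatives. Nadk2, in the same order, was read at 205, 207, 224 and 225 CPM under AdGFP and 219, 209.9, 210.3 and 207 CPM under AdNAMPT. On deposited CPM the Nadk2 groups overlapped, whereas on TMM-scaled CPM the AdNAMPT libraries (203 to 212) were all below the AdGFP libraries (215 to 235). The estimated fold for Nadk2 was 0.915 with a 95% confidence interval of 0.830 to 1.01 (limma p 0.0689, adjusted p 0.558).

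On TMM-scaled CPM, then, 2 of 10 members had groups that did not overlap, Aox1 higher and Nadk2 lower, where 4.79% of tested genes had such groups (2.09% higher and 2.7% lower). On deposited CPM there were also 2 members, Aox1 and Nmnat1, both higher, against 8.22% of tested genes (7.36% higher). Aox1 was the member common to both scales. The direction of small differences depends on this choice, since scaling by library size alone moved the median of all tested genes from 0.00153 to 0.0859 on the log2 fold change scale.

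**Figure D2:**
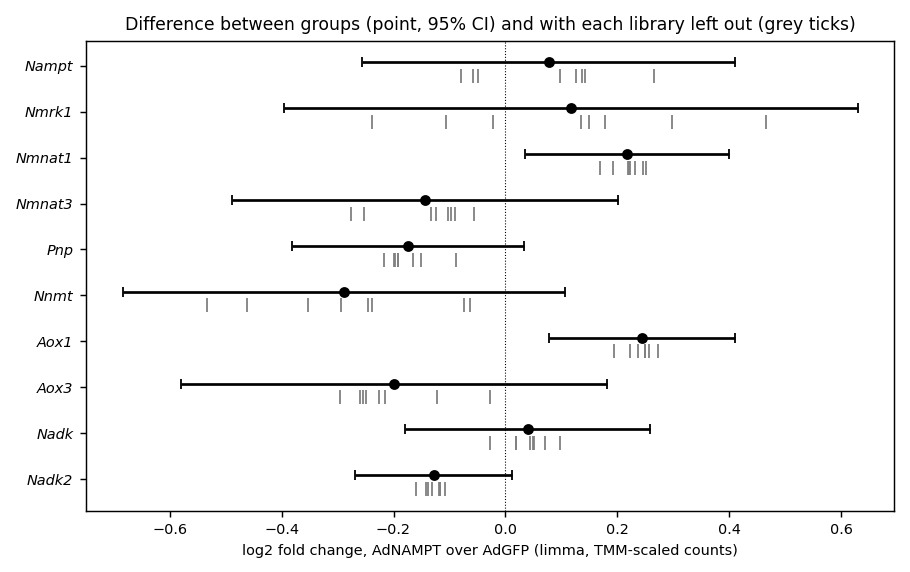
The horizontal axis is the log2 fold change, AdNAMPT over AdGFP, from limma on TMM-scaled counts; black points and bars are the estimate and its 95% confidence interval for each gene, and grey ticks are the estimates with each of the 8 libraries left out in turn. The intervals of Aox1 and Nmnat1 lie above 0 before adjustment over all genes, and the ticks of Nampt, Nmrk1 and Nadk fall on both sides of 0.

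The members were unequal in how steady they were. The SD of log2 CPM within groups was 0.05 for Nadk2, at percentile 0.587 of all tested genes. It was 0.10 for both Aox1 and Nmnat1, against a median of 0.18 over all tested genes. At the other end, Nnmt had 0.37 at percentile 86.4 and Nmrk1 had 0.46 at percentile 91.7. The wide Nnmt held 3660 to 6038 reads in a library, and the steadier Nmnat1 held 253 to 485.

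Nmrk1 and Nnmt, the members with the widest spread, lay on opposite sides of their means in the AdNAMPT libraries. In AdNAMPT replicates 3 and 4, Nmrk1 was 0.72 and 0.30 above its mean over 8 libraries on the log2 CPM scale, while Nnmt was -0.48 and -0.57 from its own mean. In AdNAMPT replicates 1 and 2 the signs were the other way, with Nmrk1 at -0.56 and -0.38 and Nnmt at 0.43 and 0.16. AdGFP replicate 1 also had Nmrk1 low, at -0.39, and Nnmt high, at 0.26. AdGFP replicate 2 had Nmrk1 at 0.14 and Nnmt at -0.17, so opposite sides were not particular to the AdNAMPT libraries. In AdGFP replicates 3 and 4, by contrast, both genes were above their means. On TMM-scaled CPM, AdGFP replicate 1 and AdNAMPT replicates 1 and 3 were each the highest or lowest of the 8 libraries for 4 of 10 members, and AdGFP replicate 3 for 0.

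**Figure D3:**
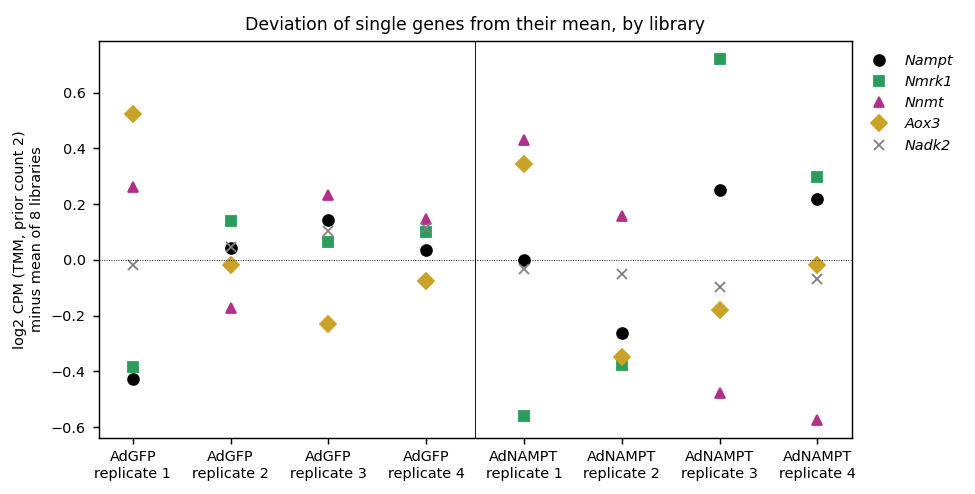
The vertical axis is the deviation of log2 CPM (TMM-scaled, prior count 2) from each gene's mean over 8 libraries, and each column is 1 library, with AdGFP left of the line and AdNAMPT right of it. Nmrk1 (squares) and Nnmt (triangles) lie on opposite sides of 0 in all 4 AdNAMPT libraries and in AdGFP replicates 1 and 2. Nadk2 (crosses) stays close to 0 throughout.

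Ratios of members within a library do not depend on how libraries are scaled, so 5 pairs were compared by an exact permutation test, two-sided, over 70 assignments, in which the smallest p is 0.0286. Clearance against salvage, Nnmt over Nampt, was, in replicate order, 10.3, 5.52, 6.82 and 6.93 per kilobase under AdGFP and 8.66, 8.59, 3.87 and 3.70 under AdNAMPT. The AdNAMPT libraries fell into a high and a low pair, and the log2 difference was -0.33 (exact p 0.429, adjusted 0.607 over the 5 pairs). Leaving out AdNAMPT replicate 1 or 2 gave -0.53 for both, whereas leaving out AdNAMPT replicate 3 or 4 or AdGFP replicate 1 gave -0.15, -0.13 and -0.16. The riboside and nicotinamide entries, Nmrk1 over Nampt, lay between 0.235 and 0.266 per kilobase in AdGFP and between 0.168 and 0.345 in AdNAMPT. This ratio thus varied more among AdNAMPT libraries, with an SD on the log2 scale of 0.43 against 0.08, while its mean differed by -0.06 (exact p 0.714, adjusted 0.714), or 0.11 without AdNAMPT replicate 1 and -0.23 without AdNAMPT replicate 3.

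Nmnat1 over Nmnat3 had the smallest p of the 5. The ratio, in replicate order, was 2.78, 3.32, 4.33 and 3.31 per kilobase under AdGFP and 5.79, 3.89, 4.73 and 4.28 under AdNAMPT. AdGFP replicate 3 lay inside the AdNAMPT range, and the log2 difference was 0.44 (exact p 0.0857, adjusted 0.429). The log2 ratio of Aox1 over Aox3 differed by 0.32 (exact p 0.229, adjusted 0.571), and both groups held a low replicate 1. Without AdGFP replicate 1 this difference was 0.16 and without AdNAMPT replicate 1 it was 0.47 (exact p 0.0857). Nadk2 over Nadk ran from 0.726 to 1.06 per kilobase and differed by -0.09 on the log2 scale (exact p 0.486, adjusted 0.607). Without AdNAMPT replicate 1 it differed by -0.22, with no overlap left and an exact p of 0.0571. Leaving out any other single library gave -0.148 to -0.036 (exact p 0.371 to 0.771). With all 8 libraries, the groups overlapped for all 5 pairs.

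**Figure D4:**
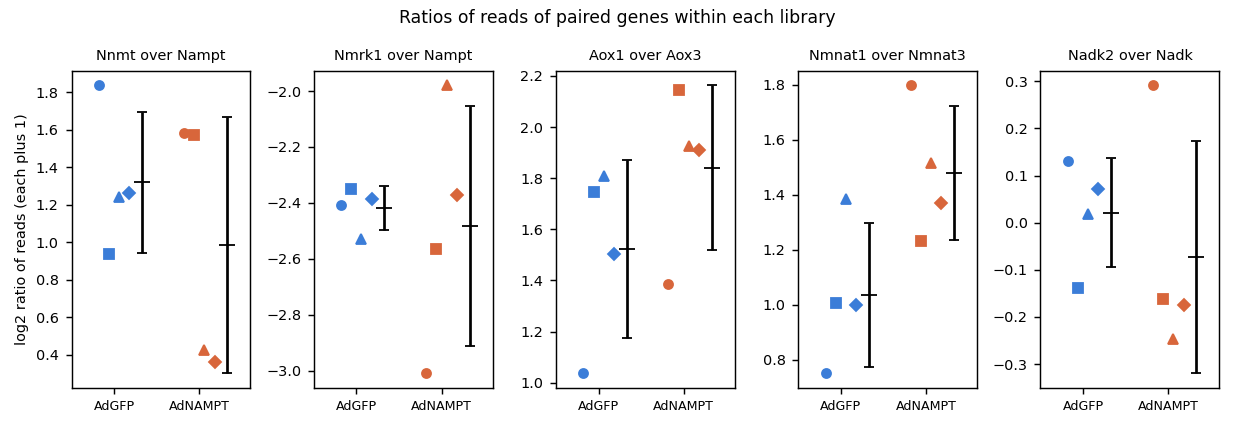
Each panel plots the log2 ratio of the reads of a pair of genes (1 read added to each) in the 4 AdGFP (blue) and 4 AdNAMPT (orange) libraries, with mean and SD in black; vertical axes differ between panels and do not start at 0. The groups overlap in every panel, and Nmnat1 over Nmnat3 is the pair in which 1 AdGFP library lies inside the AdNAMPT range.

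The tested genes whose library pattern was most like that of Nampt were found by the root mean square difference of log2 CPM, each gene centred on its mean over the 8 libraries. They were Mmp23 (0.0554), Rpl5 (0.0823), Rad51d (0.0965), Nenf (0.0995) and Btbd2 (0.103), where the spread of Nampt around its own mean was 0.219 on that scale. Mmp23 lay between 0.752 and 1.21 CPM and Rpl5 between 1.91 and 3.67 CPM. These levels are near the filter at 1 CPM, where counting error is large, so their likeness to Nampt carries little weight. For Nnmt, with a spread of 0.343, they were Ces3a (0.0950), Hao1 (0.107), Mug1 (0.110), Sorbs3 (0.118) and Gss (0.133). Ces3a, a liver carboxylesterase, had its highest and its 2 lowest values in the same libraries as Nnmt, with 711 CPM in AdNAMPT replicate 1 and 367 and 372 CPM in AdNAMPT replicates 3 and 4. Hao1, a peroxisomal glycolate oxidase, had 286 CPM in the former and 138 and 144 CPM in the latter.

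Genes around the members were read from 12 lists with 113 genes, of which 101 were tested and 0 passed the adjusted threshold in limma. An unadjusted p under 0.05 was seen for 18 (17.8%, against 9.69% of all tested genes). The lists were chosen with earlier results of these data known. Neither this share nor a count within a list is therefore independent support for a difference. The close paralogs Nmnat2, Nmrk2, Pnp2, Aox2 and Aox4 had at most 13 reads in a library and were not tested. Enzymes that break down NAD+ differed little: 7 of 9 were tested, with 3 higher and 4 lower estimates (5 and 2 with scaling by library size alone) and a median of -0.012, or 0.028 without AdNAMPT replicate 1. Among them the hydrolase Cd38 had a log2 estimate of -0.16 (SE 0.15) and Enpp3 one of 0.14 (SE 0.16). The mitochondrial NAD+ carrier Slc25a51 had -0.20 (SE 0.15, limma adjusted p 0.700).

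For the cosubstrates of the members, 4 genes of PRPP synthesis had a median of -0.02, with Prps1, a PRPP synthetase, at -0.23 (SE 0.09, limma p 0.0249) and its partner Prpsap1 at 0.13 (SE 0.09). The methyl donor list mixes genes that supply S-adenosylmethionine, which NNMT uses, with other methyltransferases that use it up. It had 7 of 8 estimates below 0 (6 of 8 with scaling by library size alone) and a median of -0.17. Mat1a, which makes S-adenosylmethionine in hepatocytes, went from 7486 ± 896 to 6226 ± 673 CPM (SD, n = 4 each), with a limma log2 fold change of -0.34 and an adjusted p of 0.417. Bhmt, which remethylates homocysteine, had -0.28 (SE 0.13).

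Molybdenum cofactor synthesis, on which the aldehyde oxidases depend, had a median of -0.18 over 5 genes, with 3 at an unadjusted p under 0.05, where the share over all tested genes was 9.69%. Mocs3, which activates a subunit of molybdopterin synthase, went the other way and had the smallest p of any gene on the 12 lists. It was between 3.67 and 5.41 CPM in AdGFP and between 6.37 and 8.995 CPM in AdNAMPT, with no overlap and a log2 fold change of 0.64 (SE 0.14, limma p 0.000859, adjusted p 0.170). Gphn, which inserts molybdenum, had -0.21 (SE 0.08).

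NADPH producing enzymes, which use the product of the NAD kinases, were listed together with Noct, a phosphatase that acts on NADP(H). The 10 tested genes of this list had a median of -0.023 and 4 estimates above 0, which became 0.021 and 6 without AdNAMPT replicate 1. Malic enzyme Me1 had the largest difference of these, 0.69 with SE 0.39, and ranged from 40.6 to 155 CPM within AdGFP alone. Mthfd1, of folate metabolism, had -0.14 (SE 0.09). The alternative routes to NAD+, from tryptophan and nicotinic acid, had 9 of 10 estimates below 0 and a median of -0.16. With scaling by library size alone this count became 6 of 10 and the median -0.08, while without AdNAMPT replicate 1 it was 7 of 10 and -0.18. Afmid, the kynurenine formamidase, had -0.35 (SE 0.11, limma adjusted p 0.392) and the hydroxylase Kmo had -0.39 (SE 0.13, adjusted p 0.403).

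Sirtuins and PARPs, the enzymes that consume NAD+ and release nicotinamide, had 14 of 19 estimates above 0 (18 of 19 with scaling by library size alone), a median of 0.09 and 0 past the threshold. Parp10 had the smallest p of them, with a log2 fold change of 0.27 (SE 0.08, limma adjusted p 0.338), and Parp6 had 0.31 (SE 0.10, adjusted p 0.422). Clock genes, which drive or follow the daily rhythm of Nampt, had a median of -0.05 over 15 tested genes. Nr1d2, a clock repressor, had -0.29 (SE 0.08, limma adjusted p 0.312) and Per2 had 0.27 (SE 0.10, adjusted p 0.431). Female-biased genes had a median of -0.43 over 12 genes, which became 0.00269 without AdNAMPT replicate 1. Male-biased genes had 0.11 over 10 tested genes and -0.032 without that library, while edgeR's quasi-likelihood fit, which gives all libraries equal weight, put their median at 1.02. The genes with the smallest p were Cux2 (1.25, SE 0.37) and Cyp2b13 (-1.43, SE 0.62) among the former, and Serpina1e (-1.41, SE 0.57) and Mup20 (0.74, SE 0.37) among the latter. Cux2 lay between 0.416 and 1.77 CPM, near the filter at 1 CPM. Serpina1e averaged 29.6 CPM under AdGFP and 28.6 CPM under AdNAMPT. Its highest value, 85.7 CPM, was in AdNAMPT replicate 1, the library with the lowest weight.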

How the data were processed

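Liver RNA-seq counts from 4 AdGFP and 4 AdNAMPT db/db mice were used. The authors aligned single reads with STAR to GRCm38 and counted them per gene with featureCounts; the submitters' processing notes name STAR 2.4.0b and featureCounts 1.4.5. The deposited counts are whole reads per feature. The deposited CPM are counts scaled to a library's total, and the deposited RPKM are those CPM per kilobase of exon. Per the labels, Ribo-Zero depletion was used, whereas the paper's methods give oligo-dT capture. Ribosomal RNA, mitochondrial included, took 0.863% to 2.63% of counts. Whether strand was used in counting is not given in the sources used here, and no exon of a member overlapped another feature.

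Symbols were matched in GENCODE M21 for 40254 of 41388 features, and coordinates are on GRCm38. As in the study's methods, ribosomal RNA features and genes not above 1 CPM in at least 3 libraries were left out. This removed 355 ribosomal RNA features, mitochondrial ones included, and left 12270 genes. Counts were scaled by TMM and fitted across all genes with limma's voomWithQualityWeights and group as the only term, and the threshold was 0.05 on p adjusted by Benjamini-Hochberg over all tested genes. Ratios used 1 added read. Routines were tested on simulated data with far larger differences than those of the members. That check therefore does not show whether differences of the members' size would be found. The depth of 12006713 to 19879814 counts makes 3 counts worth 0.151 to 0.250 CPM, for counting error only. The members and lists were chosen with earlier results of these data known. Beyond the members, the text names genes past the threshold or the 2 with the smallest p of each list, and the 5 genes most like Nampt and Nnmt. The replicate numbers were not used as a block, since nothing in the labels says that they mark a shared litter or batch.

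The alternatives were edgeR's quasi-likelihood and exact tests, the DESeq2 Wald test, no sample weights, DESeq2 size factors, library size alone, other filters, ribosomal protein genes left out, a replicate block, a GC correction and each library left out. Models ran in R 4.3.3 with DESeq2 1.42.0, edgeR 4.0.16 and limma 3.58.1, and tables and plots in Python 3.11.15 with matplotlib 3.10.9, numpy 2.4.6 and pandas 2.3.3.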

Additional observations from a re-analysis of the deposited data

Results flagged for a closer look

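Of 30 groups of 4 values examined (10 genes and 5 ratios in each arm), 3 held a sample far from the other 3 by Dixon's criterion, where chance gives 1.5. Nmrk1 was at 19.2 CPM in AdGFP replicate 1, below the other AdGFP libraries at 26.4 to 27.0 CPM. Aox3 was at 44.0 CPM in the same library, above the others at 26.2 to 29.2 CPM. The log2 ratio of Nadk2 over Nadk was 0.29 in AdNAMPT replicate 1, above the other AdNAMPT libraries at -0.25 to -0.16.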

How the results depend on the processing

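No member passed the adjusted threshold in any of 20 alternatives, and no gene of the lists in any of 11. Over all genes the count of changed genes was 34, against 65 by edgeR's exact test, 75 by the DESeq2 Wald test and 28 to 38 with 1 library left out. The members with a changed sign were Nampt, Nmrk1 and Nadk. Leaving out 1 library gave log2 fold changes of -0.079 to 0.27 for Nampt, -0.24 to 0.46 for Nmrk1 and -0.028 to 0.097 for Nadk; the cause was not tested. Nadk was at -0.0221 by the quasi-likelihood test and -0.0220 by the exact test of edgeR, -0.0198 by DESeq2 and -0.0351 without sample weights. The log2 difference of Nmrk1 over Nampt ran from -0.23 to 0.11 (without AdNAMPT replicate 1). Unadjusted p under 0.05 was seen in 20 of 20 alternatives for Aox1, 12 for Nmnat1, 2 for Nnmt and 1 each for Pnp and Nadk2. The share over all tested genes in these alternatives was 6.7% to 13.1%. They draw on the same libraries, so their number is no separate support. DESeq2 and both edgeR tests each gave 1 member with an unadjusted p under 0.05. Over all tested genes the share was 6.85% by DESeq2, 8% by the quasi-likelihood test and 6.7% by the exact test.

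The replicate numbers did not pair the libraries throughout: deviations of same-numbered libraries correlated at 0.225, -0.045, 0.213 and 0.0052. AdNAMPT replicates 2, 3 and 4 did not correlate best with their own number, whereas AdGFP replicates 1 and 3 did. With the replicate block, 41 genes passed the threshold and 0 members did, and Nadk was at -0.010. A GC correction, chosen after seeing the data, gave 35 genes, and with the block 42, with Nadk at -0.027. Members held 74 to 6038 reads in a library, the fewest for Nmnat3, and each group had 4 libraries.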
